A study of Arabidopsis thaliana with 12 samples.

Results

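For a group of 30 Arabidopsis thaliana genes, every psao array with a signal lay below every wild-type (WT) array with a signal after quantile normalization. Values deposited at 0 were left out, which concerns 3 of the 30. They were chosen by their measured levels, as the single-gene probes whose highest psao value lay below their lowest WT value on the quantile-normalized log2 scale, with at least 4 values in each genotype. The rule was met by 37 of 628 single-gene probes (5.89%), and 7 of the 37 genes were left out of the list by name. A further 72 of the 628 lay wholly above WT (11.5%). Because the psao and WT values themselves chose the genes, their levels and differences below are a description and carry no test. The psao plants are a mutant that lacks PSI-O, and both psao and WT plants were of ecotype Columbia 0. Total RNA was measured on 6 psao arrays and 6 WT arrays. The kind of psao allele, the tissue and the growth conditions are not given in the sources used here, and neither is whether an array stands for a plant of its own, so spreads between arrays may be technical.

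Photosystem I is the thylakoid complex that uses light to pass electrons from plastocyanin to ferredoxin. PSI-O is one of its small membrane subunits, encoded in the nucleus, and is known for a part in balancing light energy between the photosystems. The 30 genes share no pathway by construction. General knowledge gives 22 of them a molecular role. These 22 were sorted, after their values had been seen, into 4 genes of plastid proteins, 2 of metal binding, 5 of nucleic acid binding, 3 of chromatin and transcription, 4 of enzymes and 4 of signalling and motor proteins. Each of the 22 was put in a single group, so the 4 are not a count of every plastid protein among the 30. For the other 8 no role is stated here.

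Each array had been scaled to put its brightest probe at 100 in the deposited table, so a level of 0 on the log2 scale is an intensity of 1 on that scale. As deposited, median intensities were 0.198 to 0.273 in psao arrays and 0.0970 to 0.195 in WT arrays. Exact zeros made up 4.22% to 7.33% of psao arrays and 4.68% to 15.1% of WT arrays, the most in WT arrays 1 and 2. Over all 3187 probes tested, 477 were lower in psao by limma at an adjusted p under 0.05 (15.0%). Within a genotype, array 1 resembled array 2, array 3 resembled array 4 and array 5 resembled array 6. Each such set is called a couple here, a grouping seen in the data and absent from the labels. With couples averaged, 7 probes were called lower. The transcript of PSAO itself had no single-gene probe and was not analysed here. Of the marker genes, 0 of 7 for seed, 0 of 4 for root and 0 of 5 for stress had a single-gene probe, against 1 of 9 for green leaf. The part of other tissues or of stress in the levels was therefore not tested.

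The differences of the 30 genes were moderate. They ran from -0.59 to -1.47 log2 units with a median of -1.04, against a median of 0.03 over the 628 single-gene probes. As folds, psao was 1.51 to 2.77 times lower, and 17 of the 30 genes were at least 2-fold lower. Standard errors of the differences in limma were 0.14 to 0.48. Some of the 7 genes left out by name had larger differences than any of the 30. The range given here is therefore that of the list, not of all 37 genes that met the rule. In RNA of whole samples, fewer cells of a type and less RNA per cell cannot be told apart. The gap, which is the lowest WT array minus the highest psao array, was 0.03 to 0.87 log2 units with a median of 0.29. It was at least 0.5 in 6 genes and under 0.2 in 10.

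**Figure D1:**
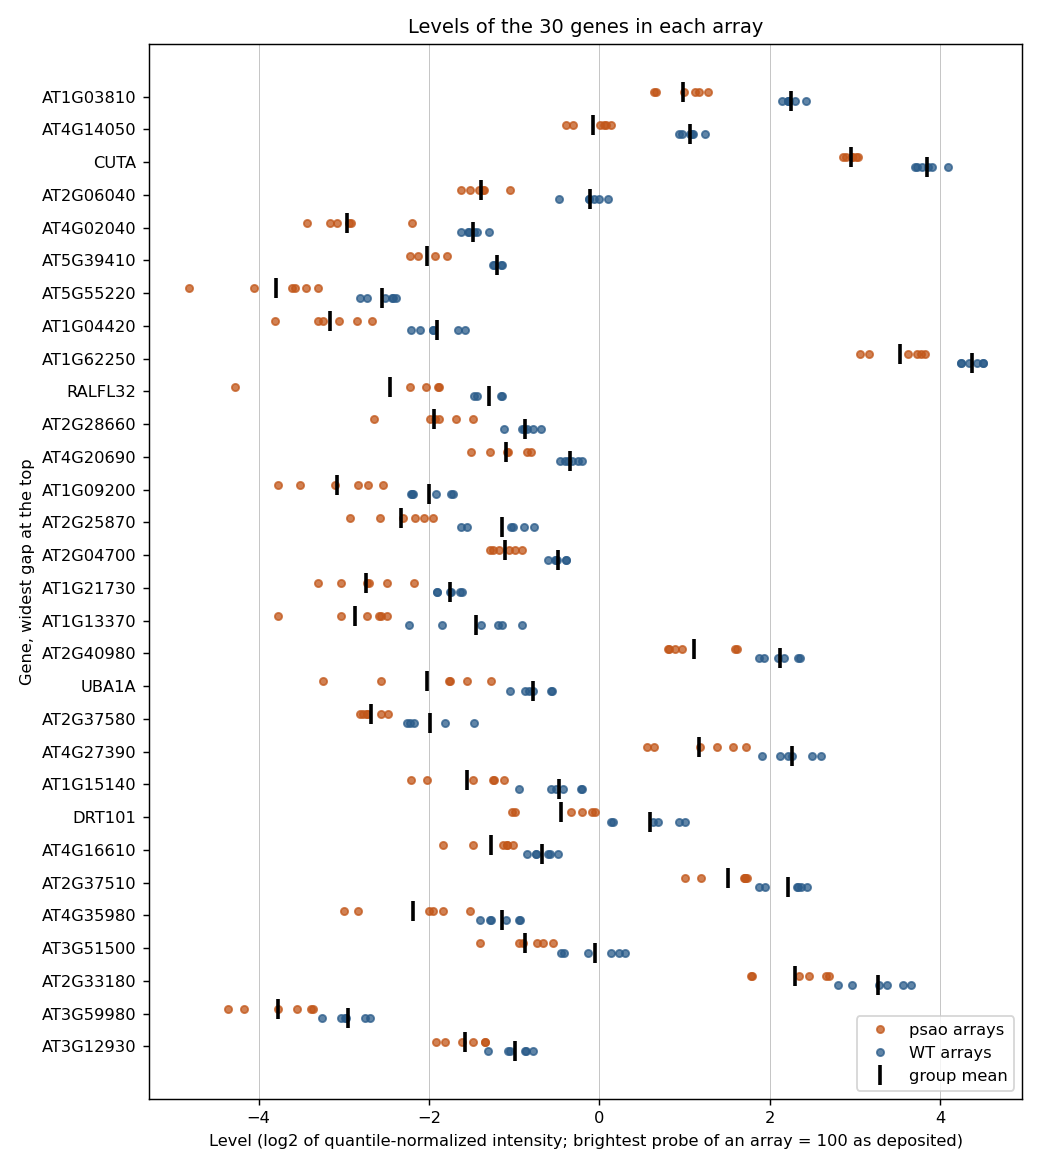
Level of each of the 30 genes (rows, widest gap at the top) in each psao array (orange, upper points of a row) and each WT array (blue, lower points), as log2 of quantile-normalized intensity; black ticks are group means. In every row the psao points end to the left of the WT points, with gaps of 0.87 for AT1G03810 at the top and 0.03 for AT3G12930 at the bottom.

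Of the genes of plastid proteins, 2 act in gene expression, 1 in protein folding and 1 in redox control, and their differences ran from -0.59 to -1.25. AT5G55220, a chaperone of the trigger factor type, which helps new polypeptides to fold, had the widest gap of the 4. Its level was -4.82 to -3.31 in psao arrays with a median of -3.59, against -2.81 to -2.39 in WT arrays with a median of -2.48. The means were -3.80 ± 0.56 in psao and -2.55 ± 0.18 in WT (SD, n = 6 each), a difference of -1.25 ± 0.25 (SE). It is the second dimmest of the 30 genes in WT, and the psao arrays were spread more widely than the WT arrays. AT2G25870, an endoribonuclease of the YbeY type that takes part in processing plastid ribosomal RNA, had psao levels of -2.93 to -1.96 with a median of -2.24, against WT levels of -1.62 to -0.77 with a median of -1.03. Its difference of -1.18 ± 0.22 (SE) was -0.52 in arrays 1 and 2, and -1.73 and -1.30 in the other couples, and WT arrays 1 and 2 were the lowest of WT. AT2G25870 was the only one of the 30 with another single-gene probe, and that probe ran the other way. It lay at -2.65 to -0.97 in psao with a median of -2.22, against -3.57 to -1.79 in WT with a median of -3.42. Its difference was 1.03 ± 0.42 (SE) and its groups overlapped, so the probes of AT2G25870 disagree in direction and the gene is uncertain.

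AT2G04700, the catalytic subunit of ferredoxin-thioredoxin reductase, takes electrons that photosystem I delivers to ferredoxin and uses them to reduce thioredoxins. It lay at -1.28 to -0.91 in psao with a median of -1.12, against -0.61 to -0.39 in WT with a median of -0.51. The difference was -0.63 ± 0.14 (SE), 1.54-fold lower, with tight groups of SD 0.15 in psao and 0.08 in WT (n = 6 each). All 3 couples gave a like value for it, between -0.73 and -0.47. AT3G12930, a plastid protein of the Iojap type, a family that binds ribosomes, had the narrowest gap of the 30. Its psao levels were -1.92 to -1.34 with a median of -1.54, against -1.31 to -0.78 with a median of -0.97 in WT. The highest psao arrays and the lowest WT array were thus almost level, and in arrays 3 and 4 the difference was only -0.15. Among these 4 genes, AT2G04700 alone was also fully separated in the values as deposited, by a gap of only 0.03. On that scale the differences were smaller, -0.55 for AT5G55220, -0.77 for AT2G25870, -0.42 for AT2G04700 and -0.27 for AT3G12930. With arrays centred on their medians that of AT2G04700 was -0.94.

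Both metal-binding genes were among the 12 with the widest gaps. CUTA encodes a protein of the CutA family, which binds copper, and was the second brightest of the 30 genes in WT. It lay at 2.86 to 3.03 in psao with a median of 2.97, against 3.70 to 4.09 in WT with a median of 3.83. The means were 2.95 ± 0.07 in psao and 3.85 ± 0.14 in WT (SD, n = 6 each), so the gap of 0.68 was several times the SD of either group. The difference of CUTA was -0.89 ± 0.14 (SE), or 1.86-fold, and it was -1.50 with arrays centred on their medians. AT2G28660, of the copper chaperone type with a heavy metal-associated domain, had psao levels of -2.65 to -1.49 with a median of -1.90, against WT levels of -1.12 to -0.69 with a median of -0.87. Its difference of -1.06 ± 0.20 (SE) was largest in arrays 1 and 2, at -1.42, after quantile normalization. As deposited it was -0.70 over all arrays and smallest in arrays 1 and 2, at -0.53.

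The 5 genes of nucleic acid-binding proteins held both of the widest gaps. AT1G03810, a protein with an OB fold, the fold of many single-strand-binding proteins, lay at 0.64 to 1.27 in psao with a median of 1.05, against 2.14 to 2.43 in WT with a median of 2.22. Its means were 0.98 ± 0.27 in psao and 2.25 ± 0.10 in WT (SD, n = 6 each), 2.43-fold lower. The gap of 0.87 was wider than the range of either group. AT4G14050, a pentatricopeptide repeat protein, belongs to a family that binds and processes organelle RNA. It lay at -0.39 to 0.13 in psao with a median of 0.03, against 0.93 to 1.24 in WT with a median of 1.07. The 3 couples gave differences of -1.36, -0.99 and -1.05, and the gap stayed at 0.67 in the values as deposited.

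The other 3 of these genes had narrow gaps. UBA1A, a UBP1-associated protein that binds RNA in the nucleus, had psao levels of -3.25 to -1.27 with a median of -1.76, against -1.05 to -0.56 with a median of -0.80 in WT. The psao SD of 0.74 was far above the WT SD of 0.19 (n = 6 each). Its psao arrays 1 and 2 lay lowest, and the couple of arrays 1 and 2 gave -1.94. AT2G37510, with an RNA recognition motif, was 1.63-fold lower and bright, with means of 1.51 ± 0.32 in psao and 2.21 ± 0.24 in WT (SD, n = 6 each). Its difference of -0.70 was -1.25 with arrays centred on their medians. AT3G59980, with an OB fold, was the dimmest of the 30 in WT. It lay at -4.36 to -3.36 in psao with a median of -3.66, against -3.26 to -2.69 in WT with a median of -2.98. Its difference of -0.82 was -0.12 as deposited, the value nearest to 0 of the 30 on that scale, and the groups overlapped both as deposited and with arrays centred on their medians. With arrays 3 to 6 alone its difference was -0.50.

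Both histone H3 genes among the 30 were more than 2-fold lower. Histone H3 is a core protein of the nucleosome, and the H3.1 form is loaded onto DNA mainly during replication. AT1G09200, listed as histone 3.1, had means of -3.08 ± 0.48 in psao and -2.0 ± 0.23 in WT (SD, n = 6 each), a difference of -1.08 ± 0.23 (SE). AT1G13370, another H3 gene, had means of -2.87 ± 0.48 in psao and -1.45 ± 0.50 in WT (SD, n = 6 each), with the second largest difference of the 30, -1.41 ± 0.28 (SE). The couples of AT1G13370 differed, with -0.72 in the couple of arrays 1 and 2, -1.54 for arrays 3 and 4, and -1.98 for arrays 5 and 6. Neither histone gene was separated as deposited, where the differences were -0.51 for AT1G09200 and -0.87 for AT1G13370. Histone H3 genes are nearly identical in sequence, so a probe listed with 1 of them may also bind RNA of others, which was not tested. AT4G16610, a zinc finger protein of the C2H2 kind found in many transcription factors, was 1.52-fold lower, with a difference of -0.60 that was -0.32 as deposited.

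Enzymes of 4 kinds were lower by 0.82 to 1.25 log2 units. AT1G04420, an oxidoreductase of the aldo/keto reductase type, lay at -3.81 to -2.67 in psao with a median of -3.15, against -2.21 to -1.58 in WT with a median of -1.95. The difference of -1.25 ± 0.21 (SE) was -0.65 as deposited, where the groups overlapped. AT1G15140, an oxidoreductase that binds FAD and NAD(P), differed by -1.07 ± 0.23 (SE). DRT101, a phosphoacetylglucosamine mutase that makes a precursor of UDP-N-acetylglucosamine, differed by -1.04 ± 0.24 (SE), with couples between -1.15 and -0.93. AT5G39410, an oxidoreductase like saccharopine dehydrogenase, had psao levels of -2.23, -2.13, -1.93 and -1.79, against WT levels of -1.25, -1.24, -1.16 and -1.15. Its gap of 0.54 rests on arrays 3 to 6, since arrays 1 and 2 of both psao and WT were deposited at 0. With these zeros kept by an offset its difference of -0.82 was -3.53, and the groups overlapped. The zeros were equal in psao and WT before normalization, so the -3.53 does not measure a larger fall.

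The 4 genes of signalling and motor proteins were lower by 0.69 to 1.16 log2 units. AT2G40980, of the protein kinase family, was the brightest of them, with means of 1.11 ± 0.38 in psao and 2.12 ± 0.20 in WT (SD, n = 6 each). AT1G21730, a kinesin-like motor that moves along microtubules, differed by -0.98 ± 0.20 (SE), and by -0.45 as deposited, where the groups overlapped. RALFL32 encodes a secreted peptide of the RALF type, signals perceived at the cell surface. It had psao levels of -4.28, -2.23, -2.04, -1.89 and -1.88, against WT levels of -1.47, -1.44, -1.16 and -1.14. The difference of RALFL32, -1.16 ± 0.48 (SE), was -0.73 without psao replicate 1. WT arrays 1 and 2 and psao array 2 of RALFL32 were deposited at 0, and psao array 1 at 0.0835 therefore stood above WT array 1.

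AT2G37580, with a RING-H2 finger of the kind found in ubiquitin ligases, changed direction under 1 of the alternatives. Its psao levels were -2.81 to -2.48 with a median of -2.73, against WT levels of -2.26, -2.23, -2.18, -1.81 and -1.47. WT array 2 was deposited at 0 and left out of these levels. In deposited intensities psao arrays 1 and 2 stood at 0.256 and 0.223, against 0.134 and 0 in WT arrays 1 and 2, so this couple ran the other way before scaling. With zeros kept by an offset the difference was 0.35 in place of -0.69, and as deposited, with zeros left out, it was -0.23.

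Among the 8 genes for which no role is stated here were the largest difference and 3 of the 4 brightest genes. AT4G02040 had the largest difference, -1.47 ± 0.20 (SE), 2.77-fold lower, which was -0.95 as deposited. It lay at -3.43 to -2.20 in psao with a median of -3.01, against -1.63 to -1.30 in WT with a median of -1.50. AT2G06040 lay at -1.63 to -1.05 in psao with a median of -1.40, against -0.47 to 0.10 in WT with a median of -0.09, and was 2.42-fold lower. AT4G20690 lay at -1.51 to -0.80 in psao with a median of -1.07, against -0.46 to -0.21 in WT with a median of -0.34. All of these were separated as deposited too.

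AT1G62250 was the brightest of the 30 in both genotypes, at 3.06 to 3.82 in psao with a median of 3.67, against 4.24 to 4.50 in WT with a median of 4.38. AT2G33180, of WT rank 3 in level among the 30, lay at 1.78 to 2.70 in psao with a median of 2.40, against 2.80 to 3.66 in WT with a median of 3.32. Its gap was only 0.10, with psao array 4 highest in psao and WT array 2 lowest in WT. AT4G27390, of WT rank 4, lay at 0.56 to 1.72 in psao with a median of 1.28, against 1.91 to 2.60 in WT with a median of 2.23. The differences of these bright genes were -0.85, -0.98 and -1.09 in this order, and with arrays centred on their medians that of AT1G62250 was -1.52 and that of AT2G33180 was -1.59. AT3G51500, of narrow gap, lay at -1.40 to -0.55 in psao with a median of -0.82, against -0.45 to 0.30 in WT with a median of 0.00, a difference of -0.81. AT4G35980 differed by -1.04, and by -0.69 with arrays 3 to 6 alone. Both genes overlapped as deposited, where AT4G35980 differed by -0.64.

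**Figure D2:**
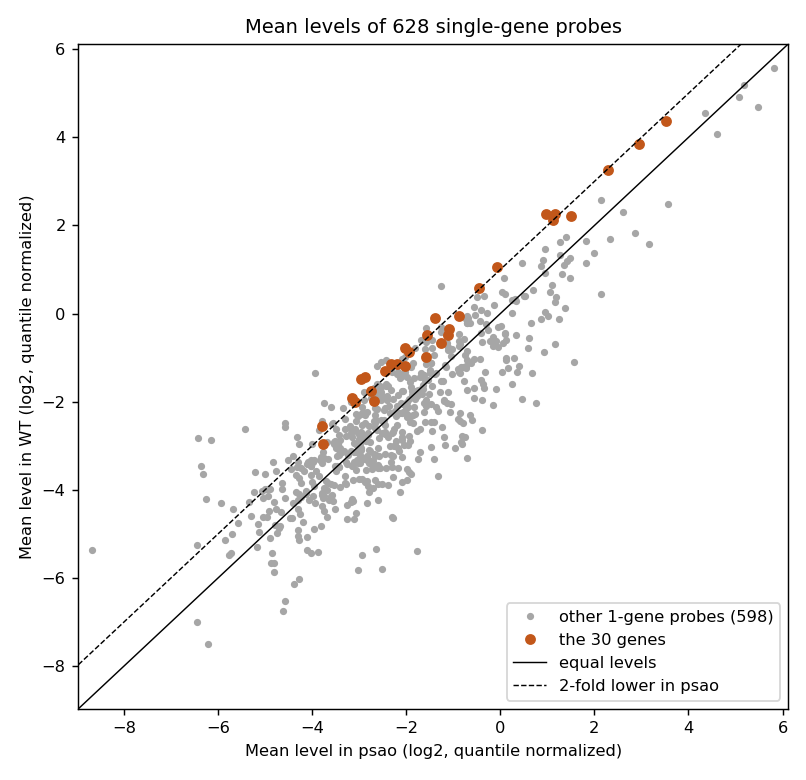
Mean level in psao (x axis) against mean level in WT (y axis), both log2 of quantile-normalized intensity, for 628 single-gene probes; the 30 genes are orange, the solid line marks equal levels and the dashed line a level 2-fold lower in psao. The 30 genes lie in a narrow band near the dashed line, with WT levels of -2.95 to 4.37.

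The 30 genes were brighter than most single-gene probes. Their median level was -1.56 in psao, against -0.73 in WT, while the medians over 628 single-gene probes were -2.38 in psao and -2.47 in WT. In psao 21 of the 30 lay at or above the median of the 628, against 28 of the 30 in WT, where a rule for genes lower in psao favours higher levels. A large difference did not by itself meet the rule. Of 63 single-gene probes at least 2-fold lower in psao, 23 were fully separated, 17 of them among the 30 genes, and 40 were not. These 40 had a median difference of -1.25, against -1.16 for the 17. Their arrays were spread more widely, with median SDs of 1.07 in psao and 0.67 in WT, against 0.44 in psao and 0.19 in WT for the 17, and their median WT level of -2.59 lay below the -0.87 of the 17. A rule of no overlap picks genes of small spread, so these values describe the choice. The 17 do not hold the separated genes left out by name, some of which had larger differences than any of the 30.

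Levels of the 30 genes varied more among psao arrays than among WT arrays. The SD was larger in psao for 26 of the 30, with medians of 0.39 in psao and 0.19 in WT. Over the 628 single-gene probes it was larger in psao for 261, with medians of 0.47 in psao and 0.54 in WT. Among the 72 probes wholly above WT it was larger in psao for 20, with medians of 0.29 in psao and 0.48 in WT. In both separated sets the genotype with the lower levels thus had the wider spread. Both sets were chosen by these same values, so their spreads describe the choice and carry no test. The part of low signal in this spread was not tested.

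After quantile normalization all 30 genes were lower in psao within each couple that had values, which the rule fixed in advance. As deposited, psao was lower for 23 of 28 genes in the couple of arrays 1 and 2. There psao was higher for AT2G37580 (0.84), AT2G25870 (0.44), AT1G13370 (0.44), AT1G09200 (0.12) and AT3G59980 (0.05), as log2 differences of deposited intensities above 0. AT3G59980 was also higher as deposited in arrays 5 and 6, by 0.02, and the other 29 genes were lower there. After normalization the median difference over 28 genes was -1.21 in arrays 1 and 2. Over 30 genes it was -0.82 for arrays 3 and 4, and -0.91 for arrays 5 and 6. In 22 genes arrays 1 and 2 held the largest difference, and in 4 genes each it was arrays 3 and 4 or arrays 5 and 6, including the 2 genes with no value in the first couple. Scaling changed this for most of the 22. As deposited, arrays 1 and 2 held the smallest difference in AT5G55220 (-0.36), AT2G28660 (-0.53) and AT4G16610 (-0.16), among others. In CUTA (-1.35) and others they still held the largest. After normalization, over the 28 genes with a value in every couple, the couples of a gene lay 0.18 to 1.26 log2 units apart, with a median of 0.66. Arrays of a couple lay close, with median distances of 0.11 to 0.20 in psao and 0.10 to 0.16 in WT. Whether both arrays of a couple hold the same RNA is not settled by the labels. If they do, each genotype is represented by 3 samples.

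**Figure D3:**
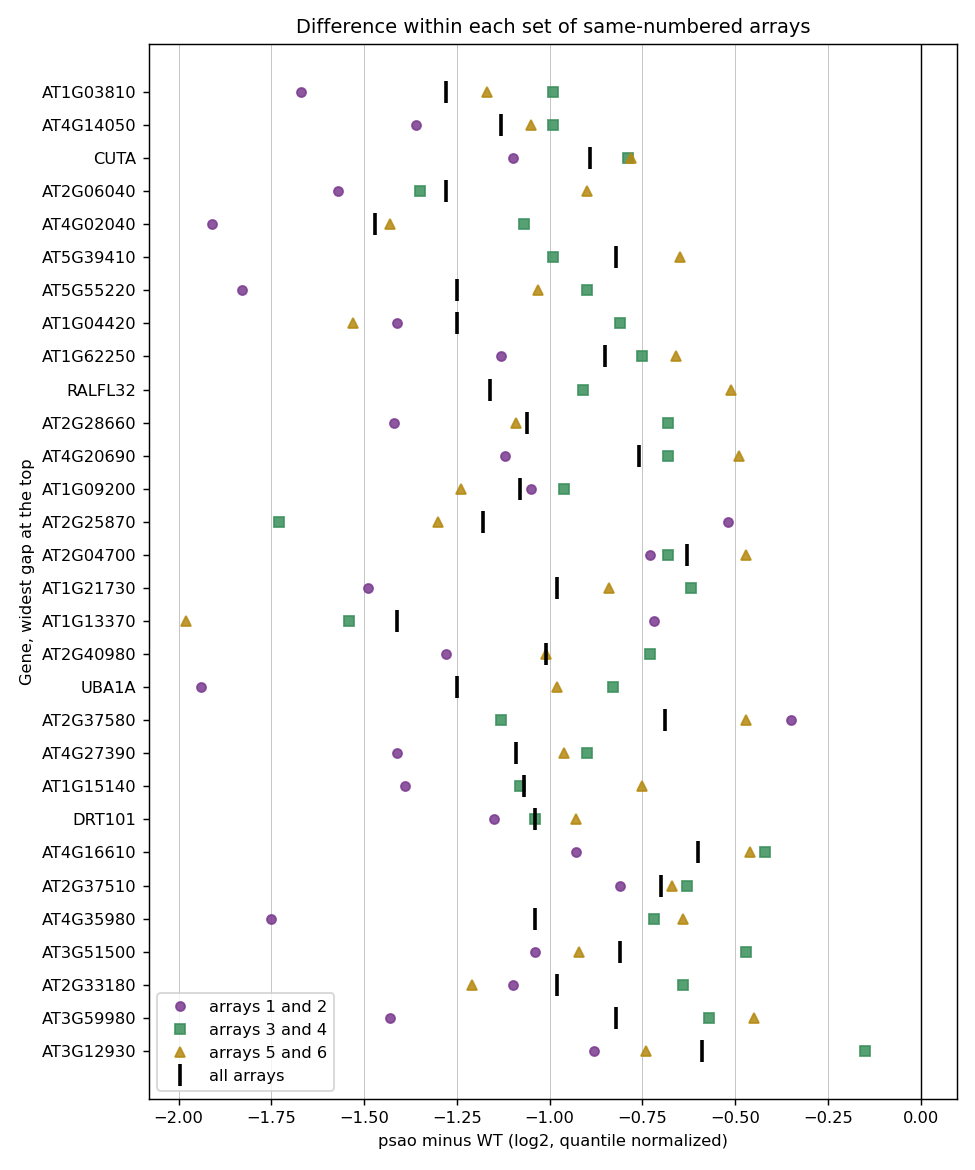
Difference psao minus WT (x axis, log2 of quantile-normalized intensity) for each of the 30 genes (rows) within each couple of arrays; black ticks are the difference over all arrays. All points lie below 0, which the rule requires. They run from -1.98 for AT1G13370 in arrays 5 and 6 to -0.15 for AT3G12930 in arrays 3 and 4. On this scale arrays 1 and 2 lie farthest left in 22 rows.

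The arrays that bounded the gap differed between genes. The highest psao array was psao array 4 in 15 genes, array 5 in 5, array 3 in 4, and arrays 6 and 1 in 3 each. The lowest WT array was WT array 1 in 9 genes, array 2 in 7, arrays 3 and 5 in 5 each, and array 6 in 4. With each of the 12 arrays left out in turn all 30 genes stayed separated, which follows largely from the rule, since fewer arrays can only narrow a group before scaling.

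The separation depended on scaling between arrays. As deposited, 15 of the 30 genes were separated where zeros were left out, and 13 where zeros counted as the lowest value. Their differences as deposited were -0.12 to -1.23 with a median of -0.74, and the median of all tested probes was shifted by 0.43 log2 units toward psao on that scale, against -0.04 after quantile normalization. With arrays centred on their medians 29 were separated, with differences of -0.65 to -1.75 and a median of -1.24, and with cyclic loess all 30 were. Over all single-gene probes tested, 37 met the rule after quantile normalization, 55 after median centring, 44 after cyclic loess and 19 as deposited. More probes thus met the rule with median centring or cyclic loess. The genes with the widest gaps, AT1G03810, AT4G14050, CUTA, AT2G06040 and AT4G02040, kept a gap of 0.25 to 0.77 as deposited, whereas AT1G13370, AT3G59980 and AT2G37580 overlapped by about 0.9.

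**Figure D4:**
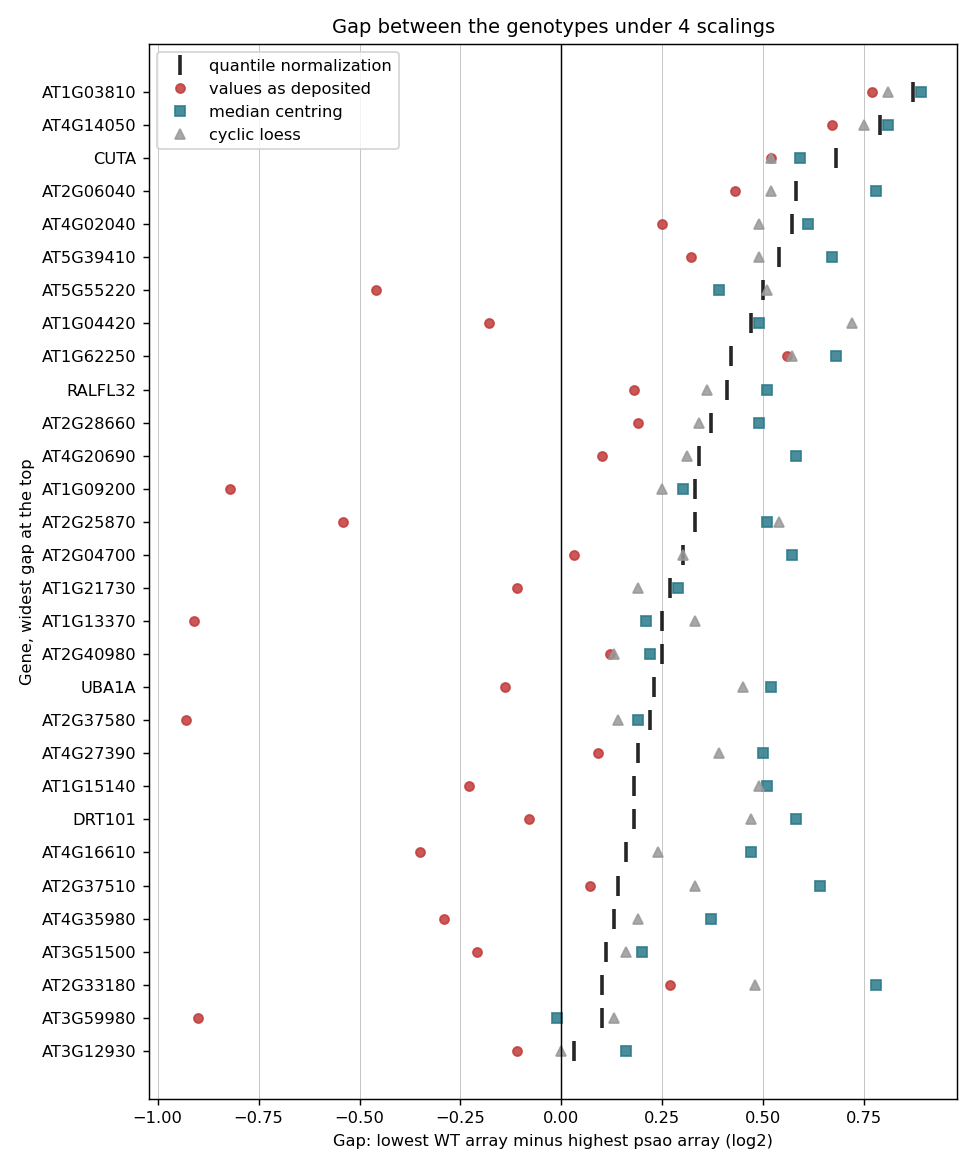
Gap between the genotypes (x axis, lowest WT array minus highest psao array, log2) for each of the 30 genes (rows) after quantile normalization (black tick), as deposited (circle), with arrays centred on their medians (square) and after cyclic loess (triangle). Circles lie below 0 in 15 rows, down to -0.93 for AT2G37580, and above 0 in the rows at the top down to AT5G39410.

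At the edge of the rule the 4 genes just inside had gaps of 0.11 for AT3G51500, 0.10 for AT2G33180, 0.10 for AT3G59980 and 0.03 for AT3G12930. The 4 single-gene probes just outside, lower in psao by their means, overlapped by 0.01 (AT4G00590), 0.02 (AT1G55440), 0.02 (AT4G00870) and 0.03 (AT1G44830). Their differences were -0.80, -0.57, -0.37 and -0.63 in this order, within or near the range of the 30 genes. The limit thus divides probes whose values differ by a few hundredths of a log2 unit.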

How the data were processed

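The deposited value table gave 1 intensity per probe and array for 3439 probes, never negative and with exact zeros, scaled so that each array's brightest probe stands at 100; what the authors did before that is not given in the sources used here, and no depth or background can be read from it. The platform annotation paired 692 probes with 1 gene and 870 with several; 1877 were not listed, and only 1-gene probes were named. Of these, 690 matched RefSeq's genes (assembly TAIR10.1), all 30 genes here included, and 3 of the 30 are also listed on probes of several genes, which were not used. Neither table describes gene function, so roles are general knowledge, and the planned keyword groups found words for 2 of the 30 genes and 36 of 628.

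Intensities above 0 were log2 transformed and quantile normalized over 12 arrays with limma 3.58.1 in R 4.3.3. Probes needed 4 values in each genotype, which left 3187. Differences are psao minus WT. Standard errors and the count over all probes came from limma (lmFit, eBayes, Benjamini-Hochberg, threshold 0.05). A run on simulated data used independent arrays, so it does not cover arrays that resemble each other in couples. The precision is limited by the number of arrays. Deviations of same-numbered psao and WT arrays correlated weakly (r of 0.144 to 0.239). A pairing by array number entered only as a block in an alternative fit. The standard errors and the 477 calls come from the fit without it. That fit treats arrays as independent, although arrays of a couple correlated at r of 0.285 to 0.471.

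Every one of the 30 genes was named. For the 12 widest and 4 narrowest gaps, the range and median over arrays, or the separate levels, were given. The same was given for the 4 brightest genes, the plastid genes and a few others (UBA1A and AT2G37580) picked after their values were seen. Genes, lists, roles and alternatives were chosen with earlier results of these data known. Sequences of the genes were not used here, and the planned promoter motif search was not run.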

Additional observations from a re-analysis of the deposited data

Results flagged for a closer look

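Among 60 sets of values (30 genes in 2 genotypes) 1 array stood far from the others of its group, where chance alone would give about 1 in 20, or 3. In RALFL32, psao replicate 1 stood at -4.28 log2 units with the nearest other of the 5 psao arrays at -2.23, a gap of 0.853 of the whole range.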

How the results depend on the processing

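Counts were recomputed under 21 alternatives, each changing 1 choice, and the limma count under 2 more. With values as deposited, 15 of the 30 genes stayed separated, 19 single-gene probes in place of 37 met the rule, and 223 probes in place of 477 were called lower by limma. With couples averaged, 97 single-gene probes met the rule and 7 probes were called; with arrays 3 to 6 alone 116 met the rule. Fewer arrays make the rule easier to meet by construction. With each array left out in turn, 38 to 50 met the rule, 30 of the 30 genes stayed separated and 399 to 476 probes were called. An adjusted p of 0.01 gave 216 calls, and array number as a block, for the pairing, 567. With zeros kept by an offset AT5G39410, RALFL32 and AT2G37580 were no longer separated. The difference of AT2G37580 was then 0.35 in place of -0.69 and that of AT5G39410 -3.53 in place of -0.82. The zeros of AT5G39410 were equal in psao and WT before normalization, so its -3.53 does not measure a larger fall. Of 626 recomputed differences of single genes, 595 moved by less than 1 SD between arrays, 30 by more and 1 changed sign. Part of the 595 could not move. Leaving out probes keeps the values of the rest, and averaging couples keeps the mean of a gene with all values. In 13 of the 30 genes the groups stayed apart in all 21 alternatives. Averaging, filtering and leaving out arrays can hardly break a separation, so mainly the scalings and the offset put it at risk. Low intensities and zeros limit the dim genes, since no background level is known.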

Other observations

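The 30 genes lay on all 5 nuclear chromosomes, with 7 of 153 tested single-gene probes on chromosome 1, 10 of 121 on chromosome 2, 3 of 117 on chromosome 3, 7 of 115 on chromosome 4 and 3 of 120 on chromosome 5. In the RefSeq order of protein-coding genes, 2 pairs of the 30 lay near each other. RALFL32 and AT4G14050 on chromosome 4 had 3 genes between them, and AT2G37510 and AT2G37580 on chromosome 2 had 6. The next nearest pairs had 61 genes between them. These are values with no test.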
